A study of Homo sapiens with 8 samples.

Results

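C/EBP transcription factors are basic leucine zipper proteins that bind DNA as dimers with each other or with related factors. CEBPA drives commitment to the granulocyte and monocyte lineages, CEBPB acts in stress granulopoiesis and in macrophages, CEBPE is needed for late granulocyte maturation, CEBPD responds to inflammatory cytokines, and CEBPG is a short partner without a strong activation domain of its own. The 5 genes were taken as the family here, and every peak with its summit in the gene body or within 50 kb of it was collected from each of 4 ChIP-seq peak lists. This gave 279 peaks of 235023 in all. By list, they were 75 of 70833 peaks for AML1-ETO at 12 h, 95 of 105769 for AML1-ETO at 48 h, 48 of 28325 for ETO2-GLIS2 at 12 h and 61 of 30096 for ETO2-GLIS2 at 48 h. The genes lie in hg19 as follows, CEBPA at chr19:33790840-33793440, CEBPG on the same chromosome at chr19:33864591-33873592, CEBPB at chr20:48807367-48809205, CEBPD at chr8:48649475-48650726 and CEBPE at chr14:23586245-23589465. The starts of CEBPA and CEBPG are 71.2 kb apart, so their windows share 28.9 kb, and 2, 5, 1 and 1 peaks of the 4 lists in the order above belong to both.

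To compare where the leukemia fusion proteins AML1-ETO and ETO2-GLIS2 bind in the same cell type, the study expressed each with an HA tag from a doxycycline-inducible vector in U937, a human monoblastic cell line, and precipitated the chromatin with an anti-HA antibody. AML1-ETO carries the Runt DNA-binding domain of RUNX1 and ETO2-GLIS2 the zinc fingers of GLIS2, and the ETO and ETO2 parts belong to 1 family of corepressors. All cells had doxycycline at 5 µg/ml, for 12 h or 48 h, and the 8 libraries are 4 ChIP libraries and 4 inputs. Each fusion protein was studied in 1 stable clone with 1 ChIP library per time, so no difference between lists has a replicate check, no test was made, and fusion protein, clone and library cannot be told apart, nor can time and library. The lists hold peaks and no read numbers. The study states read numbers that differ between the libraries, they were not used here, and the longer AML1-ETO lists were not adjusted for depth. For that reason strength is given as the rank of a peak in its own list by −log10 q, where rank 1 is the strongest, and as that rank in percent of the list.

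The windows of CEBPA and CEBPB held the most peaks in 3 of the 4 lists, and CEBPD held few of AML1-ETO and none of ETO2-GLIS2. In the AML1-ETO list at 48 h, CEBPB and CEBPG held the most and CEBPA fewer than CEBPE. CEBPA had 25 AML1-ETO peaks in its window at 12 h but 15 at 48 h, while ETO2-GLIS2 had 21 and 25. CEBPB had 24 and 35 AML1-ETO peaks and 13 and 20 ETO2-GLIS2 peaks. CEBPG had 13 and 25 against 9 and 10, CEBPE had 9 and 18 against 6 and 7, and CEBPD had 6 and 7 against 0 and 0. The AML1-ETO lists are longer. With every list limited to its 28325 strongest peaks, the family had 32 and 31 AML1-ETO peaks against 48 and 60 of ETO2-GLIS2. Any peak at all in such a window was the usual state of a gene. Of 20136 protein-coding genes, 84.4% had one in the AML1-ETO list at 12 h and 85.9% at 48 h, and 75.1% and 73.9% in the ETO2-GLIS2 lists, so that all 5 or 4 of 5 family members is near this background. The number of peaks gave more contrast. In the ETO2-GLIS2 lists, 99.3% of genes at 12 h and 98.8% at 48 h had fewer peaks than CEBPA, and 95.1% and 97.5% had fewer than CEBPB. In the AML1-ETO lists these shares were 94.2% and 64.8% for CEBPA, 93.2% and 92.5% for CEBPB, and 48.9% and 43.4% for CEBPD. At 48 h CEBPG (81.6%) and CEBPE (70.9%) thus stood above CEBPA by number of peaks. However, the member's own start was the nearest coding start for 6 of 25 of these peaks at CEBPG and 4 of 18 at CEBPE. At CEBPA it was so for 12 of 15.

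**Figure D1:**
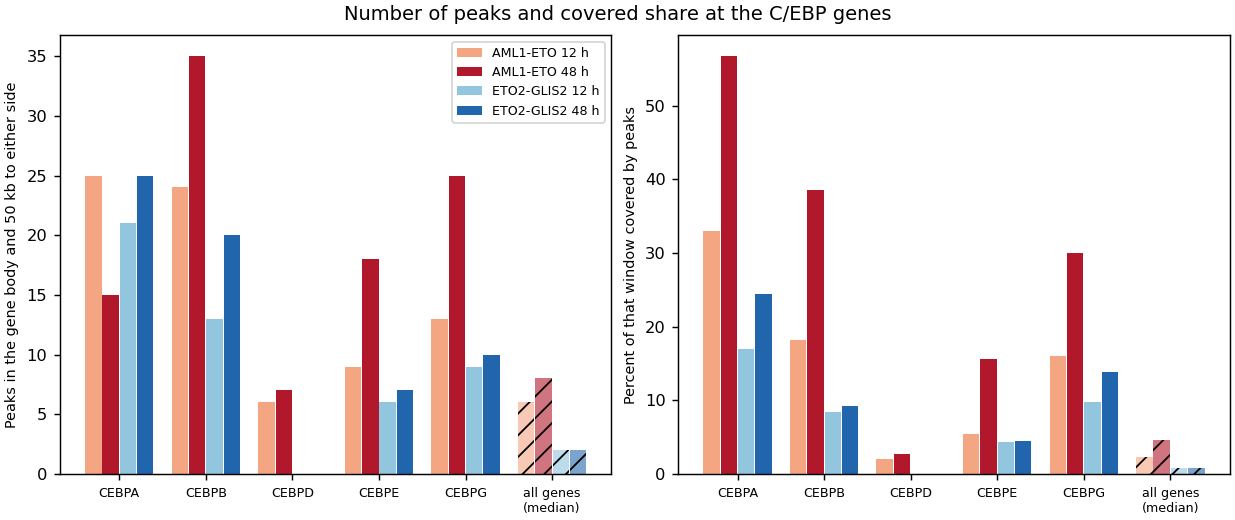
Number of peaks (left axis panel) and percent of the window covered by peaks (right panel) for the 5 genes, 1 bar per list and 1 library per bar, with the median over all 20136 protein-coding genes as hatched bars. CEBPA has fewer AML1-ETO peaks at 48 h than at 12 h, 15 against 25, while the covered share is higher, 56.7% against 33.0%.

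The length of DNA under peaks, counted inside the window for any peak that reaches into it, gave another order than their number. AML1-ETO peaks covered 33.0% of the CEBPA window at 12 h and 56.7% at 48 h, although their number fell from 25 to 15. The ETO2-GLIS2 peaks covered 17.0% and 24.4% of it. Over all protein-coding genes the median covered share was 2.37% and 4.59% in the AML1-ETO lists and 0.772% and 0.827% in the ETO2-GLIS2 lists. The CEBPB window was covered to 18.2% and 38.6% by AML1-ETO peaks and to 8.41% and 9.26% by ETO2-GLIS2 peaks. At 48 h AML1-ETO peaks covered 30.0% of the CEBPG window and 15.6% of the CEBPE window, both less than at CEBPA. For CEBPD the AML1-ETO share was 1.98% and 2.78%, below the median gene at both times, and 45.8% and 39.7% of genes had less covered.

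The fall in number at CEBPA went with merged peaks and with the edge of the window. Of the 25 AML1-ETO peaks of 12 h, 17 lay under a 48 h peak that is counted there, 1 under none, and 7 under a single 10.6 kb peak of rank 541 at 48 h that is not counted because its summit lies outside the window. Inside it, 3 AML1-ETO peaks at 48 h were 12.3, 13.2 and 12.5 kb wide, and these 3 intervals held 12 separate AML1-ETO peaks at 12 h and, at each time, 16 ETO2-GLIS2 peaks. Peaks of 8 kb or more made up 0.641% of the AML1-ETO list at 48 h, and 5 of its 678 lay at C/EBP genes. The other 2 were a 9.86 kb peak over CEBPB, which spanned 7 AML1-ETO peaks of 12 h, and an 11.5 kb peak downstream of CEBPG. The ETO2-GLIS2 list at 48 h had 16 peaks of this width in all, of which 1, of 8.49 kb, lay in the CEBPG window. A peak count in such regions depends on how the caller splits the signal, and joining peaks within 1 kb left 41, 38, 31 and 32 family peaks in the 4 lists.

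**Figure D2:**
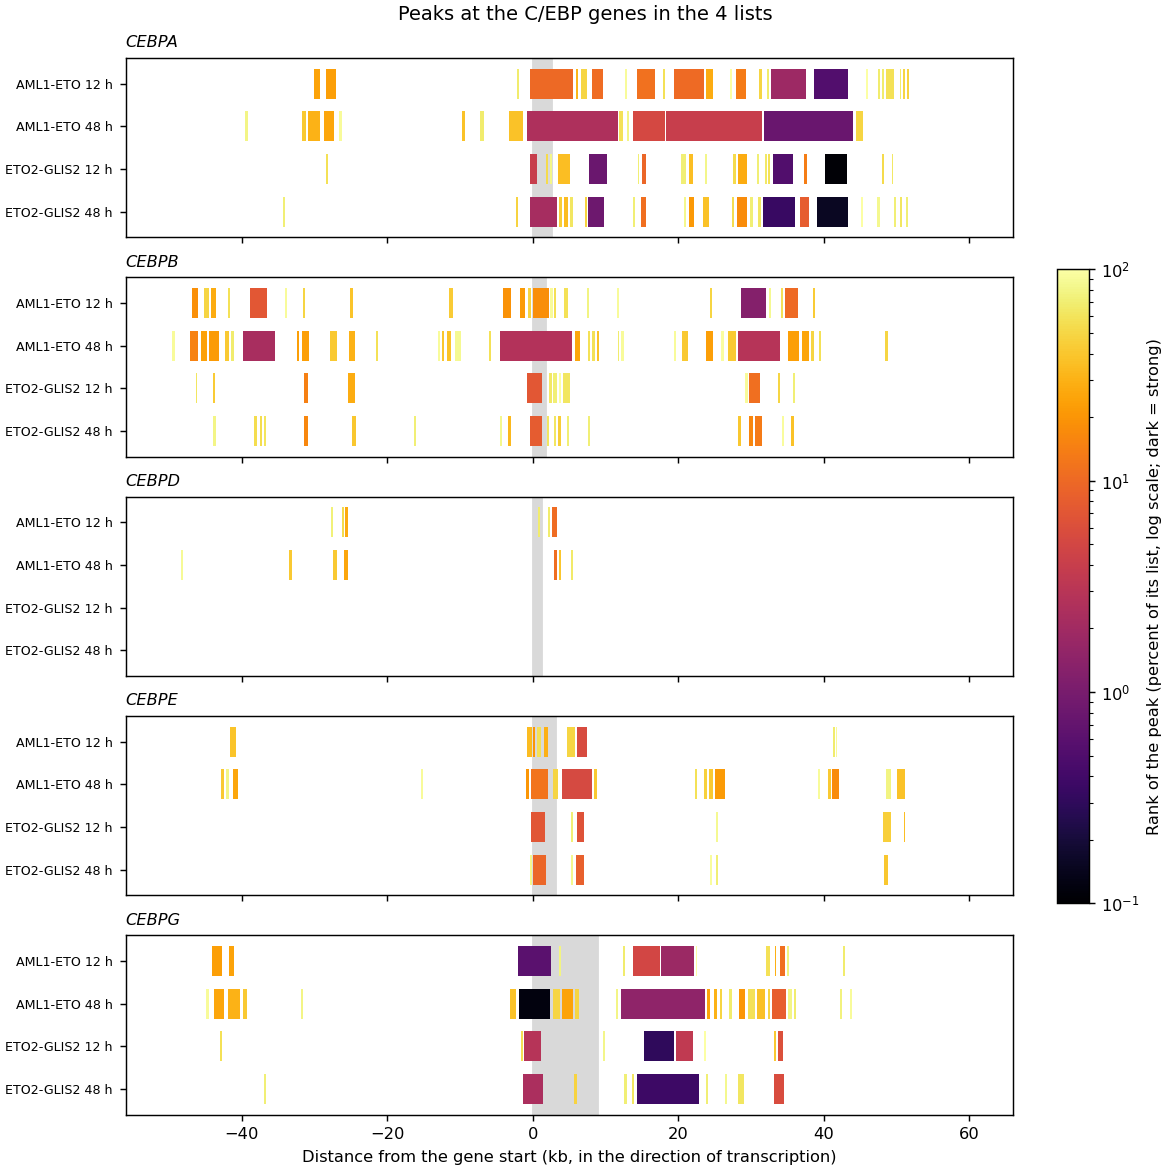
Peaks of the 4 lists with their summit in the window of each gene, by distance from the gene start in kb in the direction of transcription, with the gene body in grey and colour for the rank in percent of the list on a log scale. Narrow peaks are drawn slightly wider than to scale. The darkest bars lie downstream of CEBPA and over and downstream of CEBPG, and the CEBPD lanes of ETO2-GLIS2 are empty.

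The strongest family peak in 3 of the 4 lists was downstream of CEBPA, where a distal enhancer is known to drive its transcription in myeloid cells. In the AML1-ETO list at 48 h it was that at the CEBPG start, described further on. In all 4 lists the strongest peak of the CEBPA window had its summit 41.6 kb downstream of the gene start, and the 4 summits lay within 33 bp. The peak ranked 30 of 28325 for ETO2-GLIS2 at 12 h (0.106% of the list) and 46 of 30096 at 48 h (0.153%). It ranked 374 for AML1-ETO at 12 h (0.528%) and 806 at 48 h (0.762%). Both fusion proteins thus had a peak with a shared summit there, higher in the ETO2-GLIS2 lists by rank. Fold enrichment at the summit, which is not comparable between lists, was 53.8 and 51.4 in the AML1-ETO lists and 105 and 126 in the ETO2-GLIS2 lists. The site is intergenic and the nearest start of a coding gene is that of SLC7A10, about 35.1 kb away, rather than that of CEBPA. The GRCh37 sequence around the ETO2-GLIS2 summit at 48 h is shown because it carries the strongest peak of the family in these 3 lists, with the letters TGTGGT of a Runt site in capitals.
CEBPA downstream, chr19:33751770-33751969, plus strand: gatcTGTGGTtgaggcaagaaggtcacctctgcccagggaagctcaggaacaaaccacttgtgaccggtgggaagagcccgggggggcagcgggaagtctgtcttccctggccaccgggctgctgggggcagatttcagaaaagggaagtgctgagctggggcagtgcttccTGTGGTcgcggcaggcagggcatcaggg
These letters begin 95 bp to the left and 73 bp to the right of the ETO2-GLIS2 summit in this window. No match to the GLIS letters TGGGGGG was found in it.

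Other places near it were strong for ETO2-GLIS2. A peak 33.9 kb downstream of the CEBPA start ranked 144 and 103 in the ETO2-GLIS2 lists, with both summits on the same base. AML1-ETO at 12 h had its nearest summit 1333 bp away, in a peak of rank 1340, and at 48 h the place lay inside the 12.3 kb peak whose summit was at 41.6 kb. A smaller peak 37.5 kb downstream ranked 3904 and 2404 for ETO2-GLIS2 and had no AML1-ETO summit within 2 kb. One more AML1-ETO peak at 48 h, 44.6 kb downstream, ranked 51680 (48.9% of the list).

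Closer to the gene, a peak 8.79 kb downstream of the CEBPA start ranked 226 and 247 for ETO2-GLIS2, and 7500 for AML1-ETO at 12 h (10.6% of the list) with a summit 8 bp from that of ETO2-GLIS2 at 48 h. At 48 h it was covered by the wide AML1-ETO peak that also spanned the CEBPA start. A peak about 15.4 kb downstream was present in all 4 lists with summits within 87 bp. Its ranks were 8016 (11.3%) and 5554 (5.25%) for AML1-ETO, against 2669 (9.42%) and 3323 (11.0%) for ETO2-GLIS2. In percent of the list, ETO2-GLIS2 was thus higher at 12 h and AML1-ETO at 48 h. Of the CEBPA peaks, 3 at each time were in the strongest 1% of the ETO2-GLIS2 list, and 1 at each time in that of AML1-ETO.

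**Figure D3:**
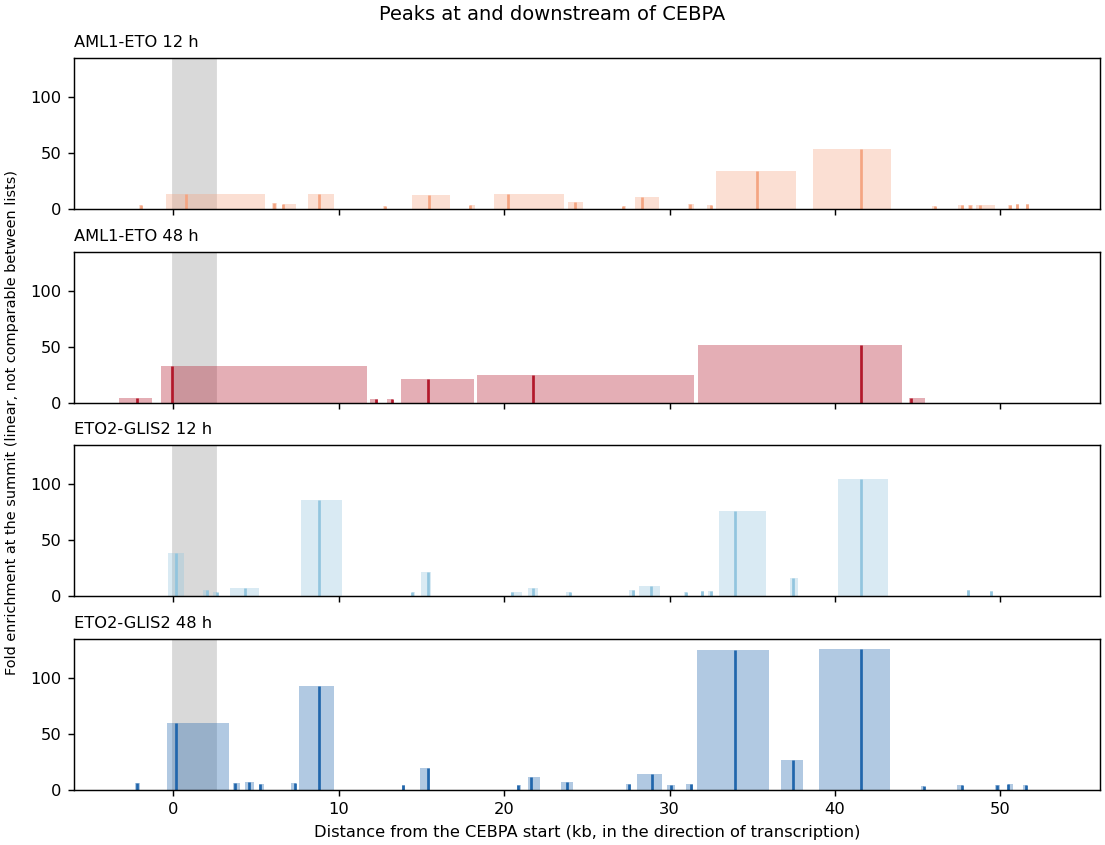
Fold enrichment at the summit (vertical lines, linear scale) and extent (shaded) of each peak with its summit in the CEBPA window, by distance from the CEBPA start in kb, 1 panel per list, with the gene body in grey. The summit at 41.6 kb is the highest in every panel, ETO2-GLIS2 has separate high peaks at 8.79 and 33.9 kb, and the AML1-ETO peaks at 48 h are merged into wide intervals.

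The gene starts were compared next. A start-site peak, meaning one that overlaps the 1 kb to either side of the gene start, was present at 5 of 5 genes for AML1-ETO at 12 h and at 4 of 5 in the 3 other lists, CEBPD being the gene without one. Of all protein-coding genes, 48.7% and 55.7% had such a peak in the AML1-ETO lists at 12 h and 48 h, and 37.6% and 40.8% in the ETO2-GLIS2 lists. With 5 genes, these counts only describe the family.

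At the CEBPG start the order of the fusion proteins was opposite to that downstream of CEBPA. The AML1-ETO peak ranked 422 at 12 h (0.596% of the list) and 127 at 48 h (0.12%), and 0.437% of protein-coding genes had a start-site peak of that rank or better at 48 h. The ETO2-GLIS2 peak ranked 807 (2.85%) and 717 (2.38%), which 1.49% and 1.75% of genes reached. CEBPG was the gene whose start-site peak was the strongest of its window in both AML1-ETO lists. The peaks were 4469 and 4329 bp wide for AML1-ETO and 2274 and 2724 bp for ETO2-GLIS2.

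At CEBPA the start-site peak ranked 7028 for AML1-ETO at 12 h (9.92%) and 2673 at 48 h (2.53%), and 1128 (3.98%) and 659 (2.19%) for ETO2-GLIS2. The AML1-ETO peak was 5961 bp wide at 12 h and 12478 bp at 48 h, against a median of 1112 and 1930 bp over all start-site peaks of genes in these lists. The ETO2-GLIS2 peak was 966 and 3771 bp wide, with medians of 687 and 785 bp. At CEBPB the ranks were 12921 (18.2%) and 2880 (2.72%) for AML1-ETO, against 2033 (7.18%) and 2358 (7.83%) for ETO2-GLIS2. The CEBPB start-site peak was the strongest of its window in both ETO2-GLIS2 lists, but in neither AML1-ETO list.

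CEBPE had ranks of 14116 (19.9%) and 12661 (12.0%) for AML1-ETO, against 1989 (7.02%) and 2801 (9.31%) for ETO2-GLIS2. The AML1-ETO values lay on the weaker side of the median start-site peak, which was 16.8% of the list at 12 h and 9.57% at 48 h, and the ETO2-GLIS2 values lay on the stronger side of 32.1% and 27.6%. The lone CEBPD peak, of AML1-ETO at 12 h, was 289 bp wide and ranked 47259 (66.7%), so it was among the weak peaks of the list, with 909 bp between its summit and the gene start.

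**Figure D4:**
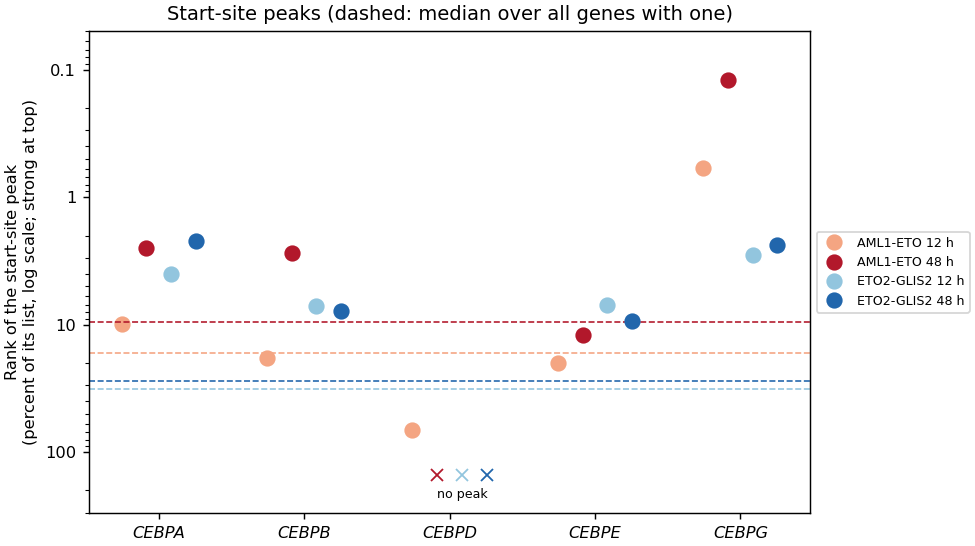
Rank of the start-site peak of each gene in percent of its list (log axis, strong at the top), 1 point per list, with crosses where a list has no such peak and dashed lines at the median over all genes with one. The CEBPG points of AML1-ETO are the highest at 0.596% and 0.12%, and CEBPD has a single point at 66.7%.

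Ties limit the ranks, since peaks with the same −log10 q share the best rank and 91.6% to 95.9% of the peaks of a list are tied with another. Ranking by fold enrichment instead moved 1 of 17 start-site ranks by more than 1.5 times, that of CEBPG for AML1-ETO at 48 h, from 0.12% to 0.0624%.

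A start-site peak of both proteins did not always mean the same place. Where a gene has several, the summit of the best-ranked one is used. At CEBPG the AML1-ETO summits lay 134 and 176 bp upstream of the gene start and the ETO2-GLIS2 summits 518 and 491 bp downstream, so they were 652 bp apart at 12 h and 667 bp apart at 48 h. Within a fusion protein the summits of the 2 times differed by 42 and 27 bp. At CEBPE the best-ranked summits of the fusion proteins differed by 789 and 836 bp, against 39 and 8 bp within a fusion protein. AML1-ETO at 12 h had 3 start-site peaks there, however, and a weak one of rank 40326 (56.9%) had its summit 28 bp from that of ETO2-GLIS2. At 48 h the closest pair of all CEBPE start-site summits was 313 bp apart. It joined an AML1-ETO peak of rank 21000 (19.9%) and a weak ETO2-GLIS2 peak of rank 25285 (84.0%). The median distance between the fusion proteins over all genes with a start-site peak of both was 217 bp at 12 h (7126 genes) and 199 bp at 48 h (8094 genes), and the upper quartiles were 504 and 484 bp. At CEBPB, by contrast, the summits were 97 and 32 bp apart. CEBPA gave no such order, because its AML1-ETO summits were 851 bp apart themselves.

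**Figure D5:**
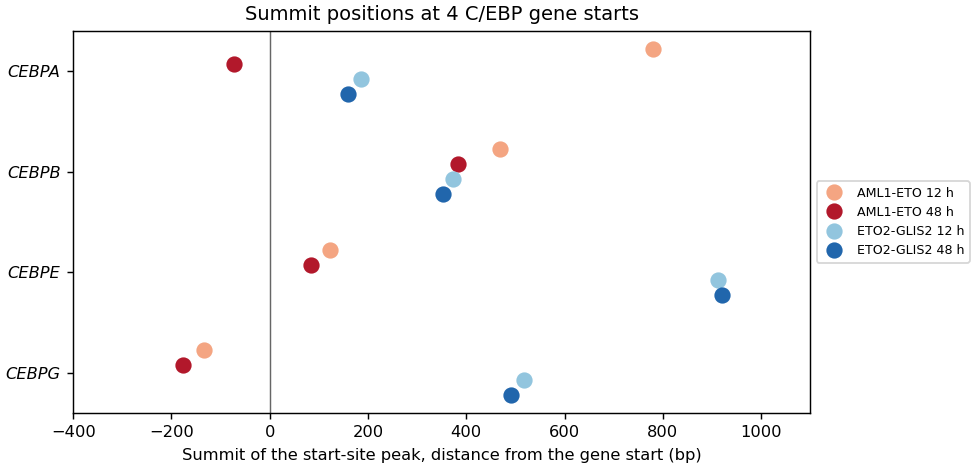
Summit of the start-site peak by distance from the gene start in bp, 1 point per list, for the 4 genes with a start-site peak in every list, taking the best-ranked peak where there are several. These AML1-ETO and ETO2-GLIS2 summits are apart at CEBPE (789 and 836 bp) and CEBPG (652 and 667 bp), and near each other at CEBPB (97 and 32 bp). A weaker AML1-ETO peak at CEBPE at 12 h, not drawn, has its summit 28 bp from that of ETO2-GLIS2.

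At CEBPE and CEBPG the ETO2-GLIS2 summits were close to another annotated start of the same gene, 89 and 81 bp from it at CEBPE and 109 and 136 bp at CEBPG. The CEBPE start near the best-ranked AML1-ETO summits is that of a transcript with no coding sequence defined, and the inner start is that of the coding transcript. The sequences around the summits at 48 h are shown to make the places comparable, with matches to searched motifs in capitals. They are an E-box (CAGCTG) in the AML1-ETO window and AP-1 letters (TGACTCA) in the ETO2-GLIS2 window of CEBPE, and none in either window of CEBPG.
CEBPE, AML1-ETO summit, chr14:23589282-23589481, plus strand: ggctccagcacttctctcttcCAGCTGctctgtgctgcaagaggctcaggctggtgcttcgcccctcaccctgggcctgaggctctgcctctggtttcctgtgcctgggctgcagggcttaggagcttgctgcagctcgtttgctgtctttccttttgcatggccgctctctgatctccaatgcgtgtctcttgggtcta
CEBPE, ETO2-GLIS2 summit, chr14:23588465-23588645, plus strand: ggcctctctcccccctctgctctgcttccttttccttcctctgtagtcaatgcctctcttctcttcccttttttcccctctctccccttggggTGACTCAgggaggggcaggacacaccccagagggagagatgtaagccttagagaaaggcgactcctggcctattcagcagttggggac
CEBPG, AML1-ETO summit, chr19:33864316-33864515, plus strand: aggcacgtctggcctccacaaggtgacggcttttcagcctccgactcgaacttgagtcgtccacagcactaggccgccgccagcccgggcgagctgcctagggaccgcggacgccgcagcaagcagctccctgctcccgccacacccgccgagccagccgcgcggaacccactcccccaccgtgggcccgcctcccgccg
CEBPG, ETO2-GLIS2 summit, chr19:33864983-33865182, plus strand: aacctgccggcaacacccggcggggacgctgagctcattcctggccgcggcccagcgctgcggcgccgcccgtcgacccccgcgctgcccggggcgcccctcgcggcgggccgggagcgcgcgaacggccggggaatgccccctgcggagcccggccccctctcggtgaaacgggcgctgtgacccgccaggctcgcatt
The CEBPE ETO2-GLIS2 window ends at the inner start, the CEBPG ETO2-GLIS2 window lies in the first intron of the longer transcripts, and the CEBPG AML1-ETO window lies upstream of the gene. The AP-1 letters begin 13 bp from the CEBPE summit of ETO2-GLIS2 at 48 h and 5 bp from that at 12 h. Both CEBPG windows are rich in G and C, at 72.5% and 79.0%, against 59.5% and 56.9% at CEBPE.

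Away from the starts, the strongest peaks of CEBPE were 6.44 to 6.47 kb downstream of the outer start, past the end of the gene. Their ranks were 3852 and 5735 for AML1-ETO, against 1843 and 2557 for ETO2-GLIS2, and the 4 summits lay within 33 bp. At CEBPB, an intergenic peak 30.9 kb downstream was shared by all 4 lists with summits within 17 bp. It ranked 853 and 3021 for AML1-ETO, where it was the strongest of the window at 12 h, and 3101 and 4053 for ETO2-GLIS2. The strongest AML1-ETO peak of the CEBPB window at 48 h lay 37.0 kb upstream, 142 bp from the start of PEDS1, the nearer gene. It ranked 2373 (2.24%), and 5098 at 12 h, while ETO2-GLIS2 at 48 h had a weak peak of rank 18087 within 41 bp of its summit and no peak there at 12 h.

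For CEBPG, the strongest ETO2-GLIS2 peak was not at the start but 16.9 kb downstream of it, in an intron of PEPD, whose nearest start was 1435 and 1444 bp away. It ranked 84 of 28325 at 12 h (0.297%) and 112 of 30096 at 48 h (0.372%). AML1-ETO had a summit within 1 bp of the 48 h position at 12 h, at rank 3542 (5.00%), and at 48 h an 11.5 kb peak of rank 1567 with its summit 4022 bp further along. Letters of a GLIS site and of a C/EBP site both lie at this ETO2-GLIS2 summit, TGGGGGG beginning 36 bp and TTGCACAA beginning 12 bp to the left of it at 48 h. A peak 34.2 kb downstream was in all 4 lists with summits within 9 bp. Its ranks were 7767 (11.0%) and 8639 (8.17%) for AML1-ETO, against 1741 (6.15%) and 1714 (5.70%) for ETO2-GLIS2.

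CEBPD differed from its relatives in both lists of ETO2-GLIS2, which had no peak in its whole window. Its strongest AML1-ETO peak lay 3.19 kb downstream of the start at 12 h and 3.2 kb at 48 h, in an intron of SPIDR, the neighbouring gene whose start was the nearer one. It ranked 7500 (10.6%) and 11524 (10.9%), and the peaks were 640 and 433 bp wide. Of the CEBPD peaks, 3 of 6 at 12 h were covered by a peak at 48 h. The lists name only peaks past a q-value of 0.05, so an empty window does not exclude weaker signal.

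The share of peaks common to both fusion proteins was higher at C/EBP genes than in the same lists as a whole, although the value of the list lay inside the interval for ETO2-GLIS2 at 12 h. Sharing means an overlap of at least 1 bp at the same time. At 12 h, 34 of 75 AML1-ETO peaks were shared, 45.3% (exact 95% Clopper-Pearson interval 33.8 to 57.3), against 26.2% of all peaks of the list. At 48 h it was 25 of 95, 26.3% (17.8 to 36.4), against 17.8%. For ETO2-GLIS2, 39 of 48 were shared at 12 h, 81.25% (67.4 to 91.1), against 74.5%, and 57 of 61 at 48 h, 93.4% (84.1 to 98.2), against 83.4%. Peaks of like rank gave 29.8%, 18.6%, 76.6% and 82.7%, which lies inside the interval at 48 h for AML1-ETO and at 12 h for ETO2-GLIS2 and outside it in the 2 other lists. These intervals cover counting error only, and neighbouring peaks are not independent. The share was not higher at every gene. For AML1-ETO, 0 of 6 and 0 of 7 CEBPD peaks were shared. For ETO2-GLIS2, 3 of 6 CEBPE peaks at 12 h and 8 of 10 CEBPG peaks at 48 h were, also below the list. All other values by gene lay above that of the list. CEBPA held 24 of the 57 shared ETO2-GLIS2 peaks at 48 h.

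Sharing went with width. The shared AML1-ETO peaks had a median width of 1017.5 bp at 12 h and 1937 bp at 48 h, and the others 263 and 446 bp. This holds for the lists as a whole, with medians of 1173 and 1968 bp for shared AML1-ETO peaks and 290 and 352 bp for the others. Wide peaks of 1 list can cover several peaks of another without a common summit. With summits within 200 bp as the rule, 26.7% and 15.8% of AML1-ETO peaks and 41.7% and 24.6% of ETO2-GLIS2 peaks at C/EBP genes were shared, so most of the ETO2-GLIS2 overlap at 48 h was with AML1-ETO peaks whose summit was further away. The share over all peaks of a list was not computed under this rule. The comparison of C/EBP genes with the whole lists thus holds for the 1 bp rule only.

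Between the times, 68 of 75 AML1-ETO peaks of 12 h were covered at 48 h, 90.7% (81.7 to 96.2) against 73.9% of the list, and 36 of 95 of those at 48 h overlapped one at 12 h, 37.9% (28.1 to 48.4) against 36.8%. For ETO2-GLIS2 the shares were 37 of 48, 77.1% (62.7 to 88.0) against 60.6%, and 35 of 61, 57.4% (44.1 to 70.0) against 54.6%. Peaks of like rank gave 76.5% and 38.9% for AML1-ETO at 12 h and 48 h, and 63.2% and 51.9% for ETO2-GLIS2. Of these, only the value for AML1-ETO at 12 h lay outside the interval. At CEBPA, 24 of 25 AML1-ETO peaks of 12 h were also covered at 48 h. When all overlapping peaks with summits in the windows were joined, there were 113 separate regions, and each was given to every list with any peak over it. Of these, 15 were in all 4 lists, namely 6 at CEBPB, 4 at CEBPA, 3 at CEBPG and 2 at CEBPE, and 51 were in the AML1-ETO list at 48 h alone, 6 in that at 12 h alone and 17 in both of these and no other. The ETO2-GLIS2 lists alone had 1 region at 12 h and 3 at 48 h. The same counts over all regions of the series were not computed, so these only describe the windows. The AML1-ETO list at 48 h is the longest, and 36.8% of all its peaks overlapped one at 12 h.

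The peak summits were searched for letters of binding sites on both strands in 200 bp windows at 48 h, as a description and not as evidence of a site. They were TGTGGT or TGCGGT (Runt), TGGGGGG (GLIS), CCGGAAGT (ETS), TGACTCA or TGAGTCA (AP-1), TTGCNNAA (C/EBP) and CAGCTG (E-box). Runt letters were near 24 of 95 AML1-ETO summits, 25.3% (16.9 to 35.2) against 24.9% of all summits of the list, and near 10 of 61 ETO2-GLIS2 summits, 16.4% (8.15 to 28.1) against 21.8%. GLIS letters were near 3 AML1-ETO summits, 3.16% against 3.82%, and near 8 ETO2-GLIS2 summits, 13.1% (5.84 to 24.2) against 7.90%. Letters of a C/EBP site, which would be read by the family's own proteins, were near 7 AML1-ETO summits, 7.37% against 9.52%, and 5 ETO2-GLIS2 summits, 8.20% against 8.59%. AP-1 letters were found at 7 and 3 summits, 7.37% against 4.73% of all summits for AML1-ETO and 4.92% against 4.86% for ETO2-GLIS2. E-box letters were at 14 and 9, 14.7% against 13.7% and 14.8% against 16.8%. ETS letters were at 2 and 0, with 2.11% against 0.577% and 0% against 1.38%. Every interval holds its background, so a difference was not detectable with these numbers of summits. The strongest AML1-ETO peak downstream of CEBPB at 12 h has TTGCAAAA at 2 places, beginning 98 and 55 bp to the left of its summit.

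Genes that work with C/EBP proteins were read in the same way from a list of 32, with dimer partners, regulators and myeloid targets. A start-site peak was present at 24 (75%) and 26 (81.25%) of them for AML1-ETO at 12 h and 48 h, and at 19 (59.4%) and 18 (56.25%) for ETO2-GLIS2, above the shares of all genes given for start-site peaks. The list was put together with earlier results known, so this is no independent evidence. Of the 6 dimer partners 5, 6, 5 and 5 had such a peak, of the 8 regulators 8, 7, 6 and 6, and of the 18 myeloid targets 11, 13, 8 and 7. For the myeloid targets these were 61.1% and 72.2% for AML1-ETO, against 48.7% and 55.7% of all genes. For ETO2-GLIS2 they were 44.4% and 38.9%, against 37.6% and 40.8%, so the targets were near the share of all genes there. At 48 h the strongest AML1-ETO peaks of the list were at IL6R, the interleukin 6 receptor (rank 75), at DDIT3, a stress-induced C/EBP partner (rank 143), and at CAMP, the cathelicidin of granulocytes (rank 233). The strongest of ETO2-GLIS2 were at ANPEP, the surface peptidase CD13 of myeloid cells (rank 466), at SPI1, which encodes PU.1, and at DDIT3 (both rank 762). SPI1 had rank 6711 for AML1-ETO at 48 h, and IL6R had rank 1463 for ETO2-GLIS2.

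The protein-coding genes whose start-site ranks in the 4 lists were most like those of each member, by the distance between log10 rank percents among 6580 candidates, were named as a description. They were TSHZ3, KDM6B and EIF4EBP1 for CEBPA, CHMP4B, F8 and FUNDC2 for CEBPB, TRIM9, FBXO5 and BRF1 for CEBPE, and HLA-DMA, BRD2 and SPRY2 for CEBPG. F8 and FUNDC2 have the same rank in each list, as do HLA-DMA and BRD2. For CEBPD, with a peak in 1 list, 161 candidates had ranks to compare and the 3 nearest were tied at a distance of 0, so none is named.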

How the data were processed

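ChIP-seq libraries and inputs were grouped by sample title. For the 12 h samples the treatment protocol names 48 h, and the titles were used. The authors, per the labels and methods, aligned reads to hg19 (Bowtie2 2.2.9, SAMtools 1.7) and called peaks of each ChIP library against its input with MACS2 2.1.1.20160309. Thresholds, duplicate removal and artefact filters are not given in the sources used here. The deposited lists hold the fold enrichment, a linear ratio of ChIP over local background, the −log10 p and −log10 q of the authors' caller, and a score derived by the authors from the −log10 q.

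Only chromosomes 1 to 22, X and Y were kept (60 to 131 lines per list were left out). Ranks by −log10 q, overlaps and windows were computed with pandas 2.3.3 and intervals with scipy 1.17.1, with GENCODE release 44 lifted to GRCh37. The code was tested on simulated data, with 0 wrong answers. Described singly were the start-site peaks, the strongest peak of each window and the peaks 35 to 45 kb downstream of CEBPA. Members and lists were chosen with earlier results of these data known, and peaks at other distances were picked for the text with their values in view. Alternatives were stricter q-values, lists of equal length, a 20 kb window, joined peaks, other overlap and start-site rules, ranks by fold or width and other motif windows.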

Additional observations from a re-analysis of the deposited data

Results flagged for a closer look

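In 3 cases the values of the fusion proteins moved in opposite directions from 12 h to 48 h. Each value rests on 1 library, and the difference was not tested. The number of peaks at CEBPA changed by -10 for AML1-ETO and by 4 for ETO2-GLIS2, while the covered share of the window was higher at 48 h for both. Of the 25 AML1-ETO peaks of 12 h, 7 lay under a 48 h peak whose summit is outside the window. The start-site rank of CEBPB changed by -15.5 percentage points of the list for AML1-ETO, towards stronger, and by 0.658 for ETO2-GLIS2, towards weaker. That of CEBPE changed by -7.96 for AML1-ETO and by 2.28 for ETO2-GLIS2. The length of the list enters these percents, and the AML1-ETO list held 70833 peaks at 12 h and 105769 at 48 h. The AML1-ETO rank itself went from 14116 to 12661 at CEBPE and from 12921 to 2880 at CEBPB. The part of list length in these changes was not tested. The median over all genes with a start-site peak also fell, from 16.8% at 12 h to 9.57% at 48 h for AML1-ETO. For ETO2-GLIS2 this median fell from 32.1% to 27.6%. A fall for AML1-ETO is thus not particular to these genes.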

How the results depend on the processing

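No paired analysis was possible because each condition has 1 library and no test was made. Of 142 alternative values for 45 results, 72 stayed within 1.5 times the value given (counts and ranks) or within its interval (shares), and 70 moved. Values follow in the order AML1-ETO 12 h and 48 h, ETO2-GLIS2 12 h and 48 h. The number of C/EBP gene peaks was 35, 45, 28 and 32 with a −log10 q of at least 5, 24, 24, 20 and 19 with at least 10, 34, 44, 23 and 32 within 20 kb, and 41, 38, 31 and 32 with peaks within 1 kb joined. It was 43, 45 and 39 in the lists other than ETO2-GLIS2 12 h when the nearest coding start had to be the member's. With every list limited to its 28325 strongest peaks it was 32, 31, 48 and 60, so ETO2-GLIS2 then had more. The share of peaks common to both fusion proteins was 26.7%, 15.8%, 41.7% and 24.6% with summits within 200 bp, and 75%, 58.1%, 64.6% and 83.3% with the same number of peaks. It was 25.3% and 8.42% for AML1-ETO with an overlap of at least 50%, and 62.5%, 50% and, for ETO2-GLIS2 48 h, 100% with a −log10 q of at least 10. The share at both times was 32.0%, 25.3%, 52.1% and 41.0% with summits within 200 bp, 18.9%, 62.5% and 41.0% in the last 3 lists with 50% overlap, 97.1% and 51.1% for AML1-ETO with a −log10 q of at least 5, and 64.5% for AML1-ETO 48 h with the same number of peaks. For neither kind of share were values over all peaks of the lists computed under these alternatives. All 20 counts of genes with a start-site peak that were recomputed stayed within 1.5 times. By width instead of −log10 q, start-site ranks were 0.383%, 0.159%, 16.8% and 0.92% for CEBPA, 6.09%, 0.347% and 3.02% for CEBPB in the first 3 lists, 53.8% for AML1-ETO 12 h and 4.22% for ETO2-GLIS2 12 h at CEBPE, and 0.983% and 2.92% for AML1-ETO at CEBPG. By fold, that of CEBPG for AML1-ETO 48 h was 0.0624%. At 48 h, AML1-ETO summits with a match in 100 bp and 400 bp windows were 10 and 39 (Runt), 2 and 19 (C/EBP) and 8 and 23 (E-box), with 1 in 100 bp (AP-1) and 8 in 400 bp (GLIS). ETO2-GLIS2 summits were 5 and 17 (Runt), with 2 (C/EBP) and 4 (E-box) in 100 bp and 6 (AP-1) and 1 (ETS) in 400 bp. The causes were not tested beyond what each setting does by construction. Read numbers were not used here, so the part of depth in the length of a list was not tested.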
